A study of Mus musculus with 20 samples.

Results

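Progenitors of control mouse retina were divided by the summed unique molecular identifiers (UMIs, each the count of 1 captured RNA molecule) of 4 genes that are read mainly in late cell cycle, Mki67, Top2a, Cenpf and Ube2c. A cell entered when the authors' annotation called it a progenitor, its library carried the GFP control construct and it held at least 2000 UMIs. It was called cycling with at least 3 UMIs of the 4 genes together and non-cycling with 0. Non-cycling is a name for this rule only, and dividing cells in G1 or early S phase can fall in it. Of 79009 cells in the series, 49665 were control cells and 7137 of these were progenitors of sufficient depth. Among these, 1806 cells were cycling and 4673 non-cycling, 6479 in all, and the 658 cells with 1 or 2 UMIs were put in neither state. Counts were summed by library and state, so that each of the 8 control libraries gave a cycling and a non-cycling profile of the same preparation. The cells were thus chosen by the measured UMIs of the 4 genes, which are left out of every comparison.

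The tissue was explanted retina of CD1 wild-type mice, an outbred stock, at postnatal day 2 (P2, 4 control libraries) or postnatal day 5 (P5, 4 control libraries), electroporated with a GFP control construct. The other 12 libraries received a MEIS1 construct, a MEIS2 construct or both, with 2 libraries for each construct and age. Tissue was dissociated with papain, and GFP-positive cells were isolated and read with 10x Genomics 3′ chemistry. The series' design text names the pCAGIG vector, in which a ubiquitous promoter drives GFP, so that GFP marks an electroporated cell and no cell type. That text names NR2F1 and NR2F2 inserts and a culture of 2 or 5 days, while the sample labels and the title name MEIS constructs and postnatal days; the groups here follow the sample labels. Nothing in the labels says that libraries came from separate animals, and the p-values measure the spread between libraries, which may be technical.

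Retinal progenitors divide, and daughter cells either stay progenitors or leave the cycle as neurons or, last, as Müller glia. E2F factors switch on replication genes near the start of S phase, and the DREAM and MuvB complexes, with B-MYB and FOXM1, time the genes of G2 and mitosis through the cell cycle homology region of their promoters. Notch signalling and its targets Hes1 and Hes5 hold cells in the progenitor state, while proneural factors such as Neurog2 start neurogenesis. The genes of Müller glia are shared in part with late progenitors.

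The promoters of 5 cell cycle genes and of 1 glial gene are shown because most members of these groups differed in 1 direction between the states. Each sequence is the 160 bases before the RefSeq transcription start on GRCm38.p6, 5′ to 3′ on the gene's strand. Capitals mark the cell cycle homology region (TTTGAA or TTCGAA), the CCAAT box (CCAAT) and the E2F site (TTTGGCGC, TTTCCCGC, TTTGGCGG or TTTCCCGG), searched on both strands. Cdk1, the kinase of mitotic entry, was read at chr10:69352913-69353072 on the minus strand. Cdc20, the activator of the anaphase-promoting complex, was read at chr4:118437344-118437503 on the minus strand. Hmgb2, a DNA-bending protein of chromatin, was read at chr8:57511683-57511842 on the plus strand. Cdc6, which loads the replicative helicase, was read at chr11:98907991-98908150 on the plus strand. Mcm5, a subunit of that helicase, was read at chr8:75109349-75109508 on the plus strand. Rlbp1, the retinaldehyde-binding protein of Müller glia, was read at chr7:79387028-79387187 on the minus strand.
Cdk1: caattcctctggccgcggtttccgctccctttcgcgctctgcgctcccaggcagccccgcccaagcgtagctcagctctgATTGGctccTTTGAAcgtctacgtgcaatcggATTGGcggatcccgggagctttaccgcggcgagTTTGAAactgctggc
Cdc20: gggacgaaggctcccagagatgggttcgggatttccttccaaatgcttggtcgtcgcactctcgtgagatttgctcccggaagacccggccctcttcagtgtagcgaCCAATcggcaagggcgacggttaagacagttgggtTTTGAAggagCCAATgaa
Hmgb2: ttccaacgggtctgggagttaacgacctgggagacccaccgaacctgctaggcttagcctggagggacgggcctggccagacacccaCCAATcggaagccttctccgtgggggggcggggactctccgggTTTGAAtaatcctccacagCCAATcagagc
Cdc6: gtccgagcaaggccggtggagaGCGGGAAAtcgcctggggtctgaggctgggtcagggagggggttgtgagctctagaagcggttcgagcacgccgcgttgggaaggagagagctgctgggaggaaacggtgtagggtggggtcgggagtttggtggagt
Mcm5: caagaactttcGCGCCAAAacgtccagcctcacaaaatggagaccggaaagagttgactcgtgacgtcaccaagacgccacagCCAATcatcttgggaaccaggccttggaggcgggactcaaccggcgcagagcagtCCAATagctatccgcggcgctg
Rlbp1: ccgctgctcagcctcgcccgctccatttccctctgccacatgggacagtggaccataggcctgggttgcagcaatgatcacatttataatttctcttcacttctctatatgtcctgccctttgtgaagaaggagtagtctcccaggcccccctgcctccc
Cdk1, Cdc20 and Hmgb2 each held a homology region together with CCAAT boxes, Cdc6 and Mcm5 held an E2F site, and the printed Rlbp1 window held none of these letters.

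Over the 300-base promoters of the table (250 bases before to 50 after the start), 19.23% of all 32851 promoters and 13.27% of those of the genes tested held a homology region. The spindle, kinetochore and cytokinesis list held it in 66.67% of 54 promoters (49 of 57 tested genes had a promoter in the table), and the G2 and mitotic entry list in 52.63% of 19. A homology region and a CCAAT box stood together in 50.0% of the spindle promoters and in 5.45% of the promoters of all genes tested. E2F sites showed another distribution: 37.74% of 53 promoters of the G1/S and replication list held one, against 5.90% for all genes tested and 0.00% of 36 promoters of the late progenitor and Müller glia list. The homology region was in 15.09% of the G1/S promoters. These are counts of letters, not of bound factors.

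Library sizes ranged from 16970756 to 141540352 UMIs and from 1959 to 17739 cells. The cycling profiles summed 80385 to 10690358 UMIs and the non-cycling profiles 2693094 to 18331883. Only 4, 6 and 11 cycling cells were found in P5 controls 4, 1 and 2, so that 213 of the 234 cycling cells at P5 came from P5 control 3. The labels disagree in several ways, and the groups follow the sample titles and the authors' assignment of cells. The treatment tags give MEIS1 for all P2 and MEIS2 for all P5 libraries of a single construct, against their titles. Barcode prefixes of several control libraries carry other replicate numbers, and those of combined library 2 at P2 name a control. Cells assigned to P2 control 1 carry prefixes naming a combined MEIS1 and MEIS2 library. Its progenitors held 353.6 CPM of Meis1 (UMIs scaled to a common library size, as in all CPM below), above the 162.1 to 207.2 of the other 7 controls and below the 699.6 to 1002 of the 4 combination libraries. For Meis2 it held 196.9 CPM, against 34.61 to 122.7 in the other controls and 672 to 1588 in the combinations. P2 control 1 was kept as a control. Progenitors of P2 libraries titled MEIS2 held 860.8 to 1786 CPM of Meis2 and 282.7 to 336.6 of Meis1. Those of P5 libraries titled MEIS1 held 3138 to 3753 CPM of Meis1 and 45.75 to 66.25 of Meis2. These levels go with the titles and not with the treatment tags. Of 49415 barcode sequences in the control libraries, 250 occurred in more than 1 library.

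The share of progenitors called cycling was higher in most P2 libraries than in most P5 libraries, but the groups overlapped. It was 29.8% (95% Wilson interval 28.05 to 31.7), 25.7% (22.4 to 29.3), 47.5% (44.8 to 50.2) and 6.73% (5.40 to 8.37) in P2 controls 1 to 4. In P5 controls 1 to 4 it was 3.11% (1.43 to 6.62), 2.96% (1.66 to 5.22), 21.7% (19.2 to 24.4) and 2.86% (1.12 to 7.12). These intervals cover counting error only. P2 control 4 lay close to the 3 low P5 libraries, and P5 control 3 lay among the P2 libraries. The mean was 27.4% ± 16.7 (SD, n = 4) at P2 and 7.65% ± 9.36 (SD, n = 4) at P5. The difference of -19.8 percentage points did not pass a two-sided exact permutation test over libraries (p = 0.0571; the smallest p that 70 splits allow is 0.0286). It was -13.1 points without P2 control 3 and -26.7 without P2 control 4, the extremes with 1 library left out (exact permutation p = 0.171 and 0.0571). With every cell thinned to 2000 UMIs the shares were 21.5%, 18.5%, 40.1% and 4.73% at P2 and 2.07%, 0.538%, 17.2% and 0.714% at P5, and the difference was -16.1 points (exact permutation p = 0.0571).

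**Figure D1:**
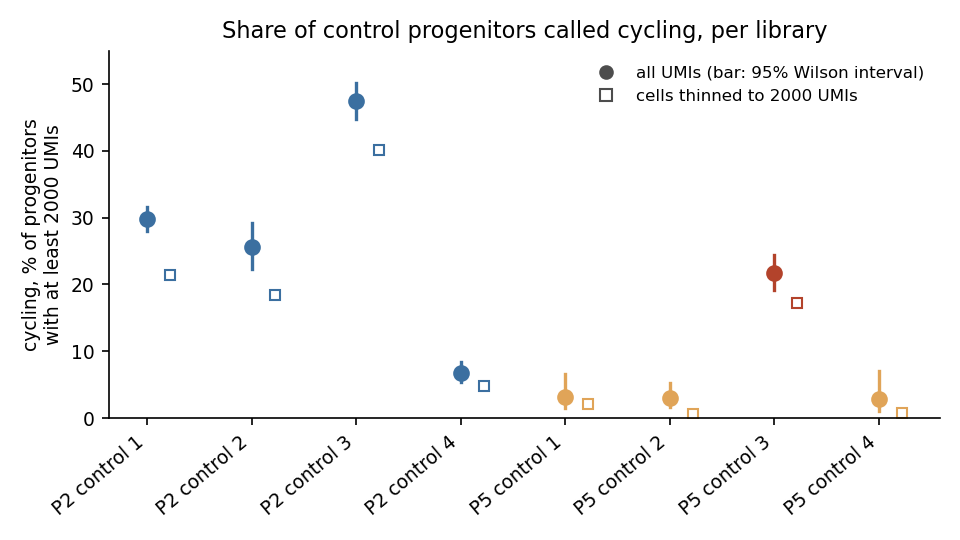
Percent of progenitors with at least 2000 UMIs that were called cycling, for each of the 8 control libraries on the x axis; filled circles use all UMIs with 95% Wilson intervals as bars, open squares use cells thinned to 2000 UMIs. P5 control 3, at 21.7%, stands apart from the other P5 libraries at 2.86% to 3.11%, and P2 control 4 is at 6.73%.

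Cycling cells were deeper than non-cycling cells in 6 of 8 libraries, for example with a median of 14513 against 11513 UMIs in P2 control 1, and shallower in P5 controls 1 and 4 (19049 against 24351 UMIs in P5 control 1). Their median mitochondrial percent was lower in 8 of 8 libraries. The part of depth in the results was examined by thinning. The authors' clusters divided the same way: cluster 3 held 96.3% of the non-cycling cells, and clusters 12 and 16 held 67.3% and 30.7% of the cycling cells. Among cycling cells, 86.7% held a UMI of Mki67 (a marker of dividing nuclei), 93.7% of Top2a (topoisomerase II), 91.1% of Cenpf (a kinetochore protein) and 79.4% of Ube2c (a ubiquitin-conjugating enzyme of anaphase).

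Few cells lay near the threshold: 531 cells held 1 UMI of the 4 genes, 127 held 2, 66 held exactly 3, and 1467 of the 1806 cycling cells held 10 or more. In P2 control 1, the spindle list took 9.96 UMIs per 10000 in cells with 0 UMIs of the 4 genes, 12.6 with 1, 16.4 with 2, 36.5 with 3 and 163 with 10 or more. The G1/S list was already higher below the threshold, at 13.2 UMIs per 10000 with 0, 22.7 with 1, 35.9 with 2 and 48.0 with 3 UMIs. The neurogenic list went from 14.1 with 0 to 19.3 with 2 and 34.7 with 3 UMIs, and the late progenitor and Müller glia list from 160.5 to 129 and 99.3. In P2 control 3 the values with 2 and with 3 UMIs were 27.7 and 53.8 per 10000 for the spindle list and 138 and 102 for the late list. Cells with 1 or 2 UMIs thus lay between the states in these lists. The progenitor transcription factors stayed between 58.8 and 71.4 per 10000 in P2 control 1 over all classes. Of the 1492 non-cycling cells of P2 control 1, 383 held no UMI of the S phase genes Pcna, Mcm2 to Mcm7, Rrm2, Tyms and Gmnn. Such cells were 297 of 560 in P2 control 3 and 244 of 669 in P5 control 3. The non-cycling state thus holds cells with S phase transcripts.

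**Figure D2:**
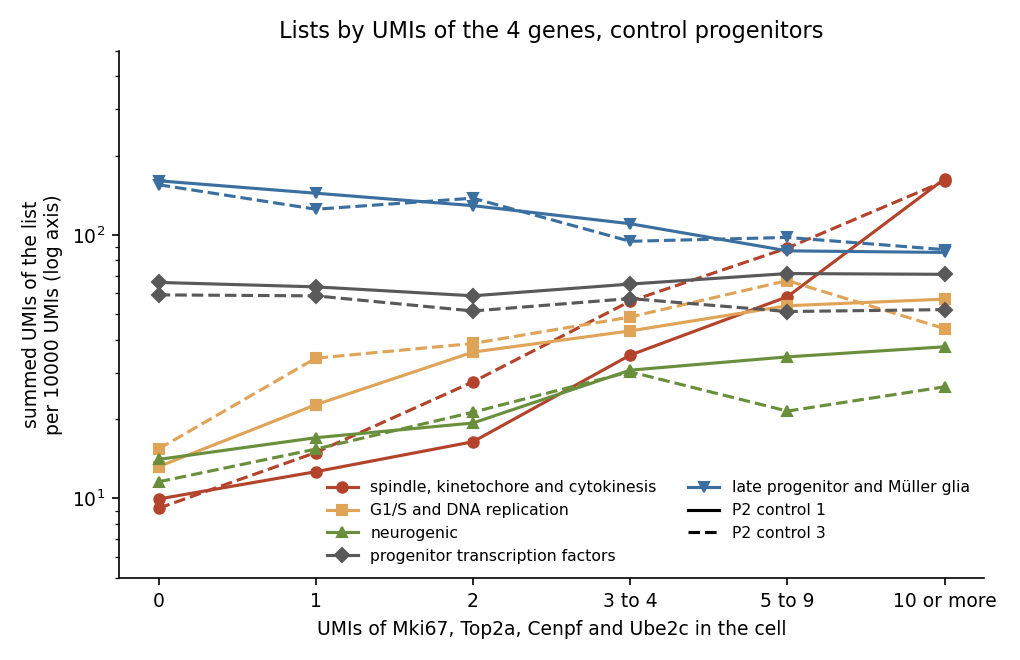
Mean summed UMIs of 5 gene lists per 10000 UMIs of a cell (log axis) against the UMIs of Mki67, Top2a, Cenpf and Ube2c in the cell, in P2 control 1 (solid) and P2 control 3 (dashed), the libraries with at least 20 cells in every class. The spindle list climbs from 9.96 to 163 in P2 control 1, the late progenitor and Müller glia list falls from 160.5 to 85.8, and the progenitor transcription factors stay level.

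Over all genes, 11019 passed the filter on low counts and 5464 of these (49.6%) differed between the states in edgeR's quasi-likelihood test with the library as a block (Benjamini-Hochberg adjusted p under 0.05). In cycling cells 2535 genes (23.0%) were higher and 2929 (26.6%) lower, and the median log2 fold change was -0.06. Without TMM, the scaling of library sizes by the bulk of genes, 2912 were higher and 2424 lower, with a median of 0.00. All 8 library differences were positive for 1026 genes (9.31%) and negative for 1585 (14.4%). The states were drawn from the cells' own RNA, and nearly as many genes were called as were not, so a list is described below by its counts and its median and nothing is read from the share called. Members named beside a count of 5 or fewer, and the genes given with a fold change alone, were picked after their values were seen. Genes of the replication, G2, spindle and histone lists are transcribed in or near the phases of the 4 selecting genes: their values describe the split and are given without a p. A lower sum cannot tell fewer cells with a transcript from less transcript per cell.

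Genes of G2, mitosis and cytokinesis were higher in cycling cells, by a wide range of fold changes. Some had under 1 CPM in non-cycling cells, while Arl6ip1 was at 266 CPM there (1040 in cycling cells) and Ube2s at 137.9 (960.3). All 24 tested genes of the G2 and mitotic entry list (of 28 in the table) and all 57 of the spindle, kinetochore and cytokinesis list (of 65) had a positive log2 fold change, with medians of 6.20 and 5.78. Part of them passed the filter on low counts through cycling cells alone, as Esco2 and Plk1 did with 3 and 10 non-cycling UMIs, so these counts and medians follow from the split and support nothing. Ccna2, the S and G2 cyclin, was at 21.1 CPM in the lowest cycling profile, 235 at the median and 314 in the highest. In non-cycling profiles Ccna2 was at 0.302, 0.534 and 0.854 CPM, with no overlap, and its log2 fold change was 8.56 ± 0.14 (SE). Cdk1, its partner kinase, was at 42.1, 417 and 628 CPM against 0.783, 1.84 and 3.84, a log2 fold change of 7.74 ± 0.18. Birc5 (survivin, of the chromosomal passenger complex) was at 105, 394 and 768 CPM against 0.373, 0.979 and 5.12, and Cdc20 at 94.8, 178 and 270.2 against 0, 1.14 and 2.99. None of these ranges overlapped.

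Esco2, the acetyltransferase that sets sister chromatid cohesion, gave 3280 UMIs in cycling and 3 UMIs in non-cycling cells, a ratio of 2817 (exact 95% interval 963 to 13660, counting error only). Hmmr, a spindle protein, had a log2 fold change of 9.0 ± 0.16, and Plk1, the polo kinase of mitosis, 8.24 ± 0.21. For Ccnb1, cyclin B1 of mitotic entry, it was 7.42 ± 0.32, or 8.59 without P2 control 4. Aurka, the centrosomal Aurora kinase, was less far apart, at 21.1, 75.8 and 116 CPM against 1.36, 2.84 and 3.84, a log2 fold change of 4.83 ± 0.17. P5 control 4, with 4 cycling cells, gave the smallest difference within a library for Ccna2 (5.46) and Cdk1 (4.42).

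Replication genes were also higher in cycling cells, with a smaller median difference. All 60 tested genes of the G1/S and DNA replication list (of 62) had a positive log2 fold change, with a median of 2.31 that also describes the split, and 47 were higher in all 8 libraries. Rrm2, the small subunit of ribonucleotide reductase, was at 10.5, 141 and 238 CPM (lowest, median and highest cycling profile) against 0.157, 0.379 and 3.89, a log2 fold change of 6.54 ± 0.31, or 8.21 without P2 control 1. Pcna, the sliding clamp of the polymerases, was at 55.8, 87.8 and 133 CPM against 11.2, 16.9 and 32.9 (2.24 ± 0.15). Neither pair of ranges overlapped. The helicase subunits differed among themselves: Mcm5 was at 17.3, 39.8 and 56.5 CPM against 1.97, 5.72 and 13.7 (2.29 ± 0.28). Mcm2 was at 12.5, 20.9 and 31.6 CPM against 4.99, 11.7 and 15.8 (0.78 ± 0.20), with overlapping ranges and a negative difference (-0.11) in P2 control 4. Cdc6 had a log2 fold change of 3.42 ± 0.34, Tyms (thymidylate synthase) 3.13 ± 0.12, Clspn (claspin, of the replication checkpoint) 4.98 ± 0.23 and Ccne2 (a cyclin E) 2.45 ± 0.24. Ccne1, the other cyclin E, did not pass the filter and gave 741 UMIs in cycling against 100 in non-cycling cells.

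Of 36 tested histone and chromatin genes, 35 had a positive log2 fold change, again as a description of the split, and the exception was Hmga2 (-0.27). Hmgb2 was at 1854, 3257 and 5459 CPM in cycling against 88.4, 141 and 259.6 in non-cycling profiles, a log2 fold change of 4.49 ± 0.12. H2afz, a histone variant made outside S phase as well, was at 2338, 5612 and 11069 CPM against 589, 767 and 2152 (2.57 ± 0.12). Neither gene's ranges overlapped between the states. Hist1h1b, a linker histone of S phase, was at 42.1, 1121 and 4570.1 CPM against 1.58, 5.70 and 35.0 (7.30 ± 0.27). Replication histones mostly lack a poly(A) tail, and the Hist1 genes have near-identical copies, so levels such as those of Hist1h2ap and Hist1h2ae are uncertain in 3′ counts.

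The G1 regulators did not move as a group. Of 28 tested, 11 were called higher and 5 lower (23.0% and 26.6% of all genes tested), with a median log2 fold change of 0.26. Ccnd1, the cyclin D that carries growth signals into the cycle, was at 253, 363 and 718 CPM in cycling and 259.8, 390.4 and 531 in non-cycling profiles. Its log2 fold change of -0.07 ± 0.12 did not pass the test (edgeR adjusted p = 0.654), and it was 0.01 without TMM, 0.02 without P2 control 1 and 0.04 without P2 control 3. That value pools -0.37 at P2 and 0.32 at P5. The age difference of Ccnd1 (0.66) was called in edgeR's interaction test (adjusted p = 0.0245), but not without P5 control 3 (0.54) or after thinning (0.12). Ccnd3, another cyclin D, fell: 22.9, 38.7 and 133 CPM against 34.8, 123 and 264, lower in cycling cells of 8 of 8 libraries (-0.99 ± 0.14, edgeR adjusted p = 9.69e-06). The ranges of Ccnd3 overlapped between libraries and the difference was within them. Cdk6 (-0.80), Btg1 (-0.45) and Btg2 (-0.50), an antiproliferative pair, and Ccng1 (-0.59) were the other genes called lower.

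Inhibitors of cyclin-dependent kinases differed among themselves. Cdkn2c (p18) was higher by a log2 fold change of 3.15 ± 0.16, at 21.1, 66.4 and 102 CPM against 4.99, 7.60 and 17.1 with no overlap. Cdkn2d (p19) was higher by 2.67 ± 0.17. These 2 inhibitors are known to vary with the cycle and are given without a p. Cdkn1a (p21) rose by 1.30 ± 0.16 (edgeR adjusted p = 1.56e-06), higher in 7 of 8 libraries. Cdkn1b (p27) was at 106, 189 and 232 CPM against 114, 169.8 and 227 and its log2 fold change of 0.11 ± 0.08 was not called (adjusted p = 0.293). Cdkn1c (p57) was not called either, at 0.34 ± 0.16 (adjusted p = 0.0841), but was without P2 control 4 (0.45, edgeR adjusted p = 0.0288), and was at 0.18 without P5 control 3. The p27 and p57 transcripts thus lay at overlapping levels in both states.

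The progenitor factors Sox2 and Rax lay at overlapping levels in cycling and non-cycling cells. Sox2, a factor that keeps neural cells undifferentiated, was at 63.2, 149.8 and 233 CPM in cycling and 99.0, 166 and 229.9 in non-cycling profiles (log2 fold change 0.05 ± 0.11, edgeR adjusted p = 0.76). Rax, an eye field factor, was at 73.7, 245 and 302 CPM against 193, 230.0 and 271 (0.02 ± 0.12, adjusted p = 0.934). Neither was called, and their sign changed under several alternatives. Over the list of progenitor transcription factors and markers, 3 of 21 tested genes were called higher and 6 lower, with a median of -0.16. Over all genes tested, 23.0% were called higher and 26.6% lower. Sox11, a neural SoxC factor, rose by 1.71 ± 0.14 (adjusted p = 3.95e-09), and Hes6 is described with the neurogenic genes. Lhx2 was called at 0.26 ± 0.09 (adjusted p = 0.0238), but not in DESeq2 (0.22) or without P2 control 2 (0.16), 3 (0.23) or 4 (0.25) or P5 control 3 (0.24).

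Vim, Nes, Sox9, Sox8, Pax6 and Zfp36l1 were the genes of this list called lower. Vim, the intermediate filament vimentin, was at 301, 536 and 1059.8 CPM in cycling against 699.6, 998 and 1541 in non-cycling profiles, and fell by 0.96 on the log2 scale (SE 0.10, edgeR adjusted p = 1.04e-07). Nes, the intermediate filament nestin, fell by 0.90 (SE 0.09, adjusted p = 6.73e-08), and Sox9, a factor of late progenitors and Müller glia, by 0.58 (SE 0.08, adjusted p = 5.31e-06). Each of these was lower in cycling cells of 8 of 8 libraries, although the ranges overlapped. Pax6 fell by 0.34 (SE 0.10, adjusted p = 0.00871), again in 8 of 8 libraries.

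Of 26 tested Notch pathway genes 4 were called higher and 7 lower (23.0% and 26.6% of all genes tested), with a median log2 fold change of -0.17. The receptor Notch1 was at 166, 203 and 314 CPM in cycling and 167, 219.5 and 304 in non-cycling profiles (0.01 ± 0.08, edgeR adjusted p = 0.932), and its sign changed under several alternatives. Its targets Hes1 (179, 416 and 809 CPM against 156, 481 and 1082; -0.16 ± 0.10, adjusted p = 0.217) and Hes5 (-0.19 ± 0.13, adjusted p = 0.262) were not called. The receptor and both targets thus lay at overlapping levels. The ligand gene Dll1 rose, from 4.10, 21.8 and 70.0 CPM in non-cycling to 26.6, 45.5 and 85.7 in cycling profiles (0.73 ± 0.20, adjusted p = 0.00535). Its differences were 0.01 to 0.80 in the P2 libraries and 1.59 to 2.91 in the P5 libraries, and it lost the call with cells thinned to 2000 UMIs (0.39, adjusted p = 0.0514). The inhibitory ligand Dll3 (1.30), Hes6 and Rbpj (0.36), the DNA-binding partner of Notch, were the others called higher. Among those lower were Aph1a of the gamma-secretase complex (-0.62 ± 0.12, adjusted p = 0.000252), the catalytic presenilin Psen2 (-1.82) and the target Heyl (-1.34). Mib1, the ligase that activates Notch ligands, was called at -0.25 ± 0.08 (adjusted p = 0.0156), but not without P2 control 1 (-0.22). Nor was Mib1 called without TMM (-0.19), without the library block (-0.24) or thinned before or after calling states (-0.30 and -0.31). The call was also lost from 1 UMI (-0.14), with non-cycling cells free of S phase UMIs (-0.15) and at P5 alone (-0.35).

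Neurogenic genes were higher in cycling progenitors. Of 23 tested, 16 were called higher and 1 (Btg2) lower (23.0% and 26.6% of all genes tested). Their median log2 fold change was 0.88 against -0.06 over all genes tested, and 7 of the 23 were higher in 8 of 8 libraries. Hes6, a bHLH protein that opposes Hes1 (chr1:91411483-91414038 on mm10), was at 211, 736 and 1096 CPM in cycling and 77.1, 186 and 464 in non-cycling profiles. The ranges overlapped, but Hes6 was higher in cycling cells of each library, by 1.12 to 2.66 (1.68 ± 0.14, edgeR adjusted p = 5.86e-09). Mybl1, a MYB-family factor (chr1:9667415-9700209), separated the states without overlap, at 52.7, 149 and 242 CPM against 3.35, 20.4 and 38.8 (2.83 ± 0.19, adjusted p = 2.36e-10). Insm1, a zinc finger factor of neurogenic divisions, was at 22.2, 60.9 and 105 CPM against 2.87, 15.4 and 43.0 (1.79 ± 0.20, adjusted p = 5.12e-07).

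Neurog2, a proneural factor (chr3:127633135-127635631), was at 0, 76.2 and 199.8 CPM against 1.86, 16.2 and 22.6 (2.80 ± 0.26, adjusted p = 3.9e-08 in edgeR). It was higher in 7 libraries, and no Neurog2 UMI was counted in the 4 cycling cells of P5 control 4. Olig2 and Atoh7, bHLH genes of cells about to leave the cycle, did not pass the filter: Olig2 gave 806 UMIs in cycling and 57 in non-cycling cells, and Atoh7 946 and 95, with no UMI in 3 cycling profiles each. The 7 summed neurogenic markers, among them Neurog2, Atoh7, Olig2 and Hes6, had a median of 1433 CPM (348 to 2269) in cycling and 406 (111 to 1000) in non-cycling profiles. Whether cells entering the authors' separate neurogenic type take part in this difference was not tested. Without P2 control 1, 13 of 22 neurogenic genes were called higher (19.0% of all genes tested), and without P5 control 3, 15 of 23 (21.4% of all). Without the library block 6 of 23 were (14.1% of all).

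Most genes of the late progenitor and Müller glia list were lower in cycling cells. The list also holds the immediate early genes Fos, Jun, Junb and Egr1, and its counts and median include them. Of 36 tested genes, 29 were called lower and 3 higher (26.6% and 23.0% of all genes tested), with a median log2 fold change of -1.03. Lower values in all 8 libraries were seen for 25 of them, 29 of 36 were called lower without P2 control 1 (21.7% of all genes tested), 27 of 35 without P5 control 3 (23.5% of all), and 18 of 36 without the library block (14.0% of all). Rlbp1 was at 44.8, 157 and 718 CPM in cycling and 273, 885 and 1882 in non-cycling profiles, and fell by 2.13 on the log2 scale (SE 0.12, edgeR adjusted p = 4e-11). Rlbp1 was at 273 to 438 CPM in non-cycling cells at P2 and 1332 to 1882 at P5, so that the ranges of the states overlapped across ages, while each library alone gave a difference of -1.39 to -2.60. Apoe, the glial apolipoprotein E (chr7:19696109-19699188), was at 282, 1655 and 3179 CPM against 1128, 4723 and 15598 (-1.78 ± 0.12, adjusted p = 1.9e-10). Car14, a membrane carbonic anhydrase of Müller glia (chr3:95897768-95904691), was at 11.7, 23.8 and 93.1 CPM against 73.4, 171 and 367 (-2.32 ± 0.14, adjusted p = 4.44e-11). Slc1a3, the glial glutamate transporter, was at 117, 209 and 887 CPM against 296, 808 and 1481 (-1.28 ± 0.12, adjusted p = 2.64e-08). All of these were lower in cycling cells of 8 of 8 libraries.

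Within this list the size of the difference varied by gene. Fos, Jun, Junb and Egr1 were at 248, 255.1, 55.76 and 170.7 CPM over the summed cycling cells. Over the summed non-cycling cells they were at 918.8, 553.8, 211.3 and 451 CPM. Glul, glutamine synthetase, fell by 0.54 (SE 0.09, edgeR adjusted p = 5.27e-05) and Dkk3, a secreted Dickkopf protein, by 0.56 (SE 0.10, adjusted p = 0.000129). The NFI factors that mark late progenitors were not called: Nfia at -0.13 ± 0.10 (adjusted p = 0.275), Nfib at -0.14 ± 0.07 (0.112) and Nfix at -0.10 ± 0.08 (0.331). The inhibitors of bHLH proteins went opposite ways. Id1 was at 42.1, 181 and 344 CPM in cycling against 12.9, 67.6 and 117 in non-cycling profiles (1.42 ± 0.12, adjusted p = 1.01e-08) and was higher in 7 of 8 libraries. Id3 was at 81.2, 203 and 453 CPM against 235, 458.1 and 637 (-1.13 ± 0.12, adjusted p = 3.2e-07) and was lower in 8 of 8. Id2 (0.36) and Ednrb (0.81), an endothelin receptor, were the other genes called higher. The summed Müller glia markers (Rlbp1, Glul, Apoe, Clu, Slc1a3, Aqp4) had a median of 2622 CPM (614 to 5349) in cycling and 6909 (1761 to 16860) in non-cycling profiles, beside 6554 CPM in the cells that the authors called Müller glia. Whether glia among the non-cycling cells take part in this difference was not tested.

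**Figure D3:**
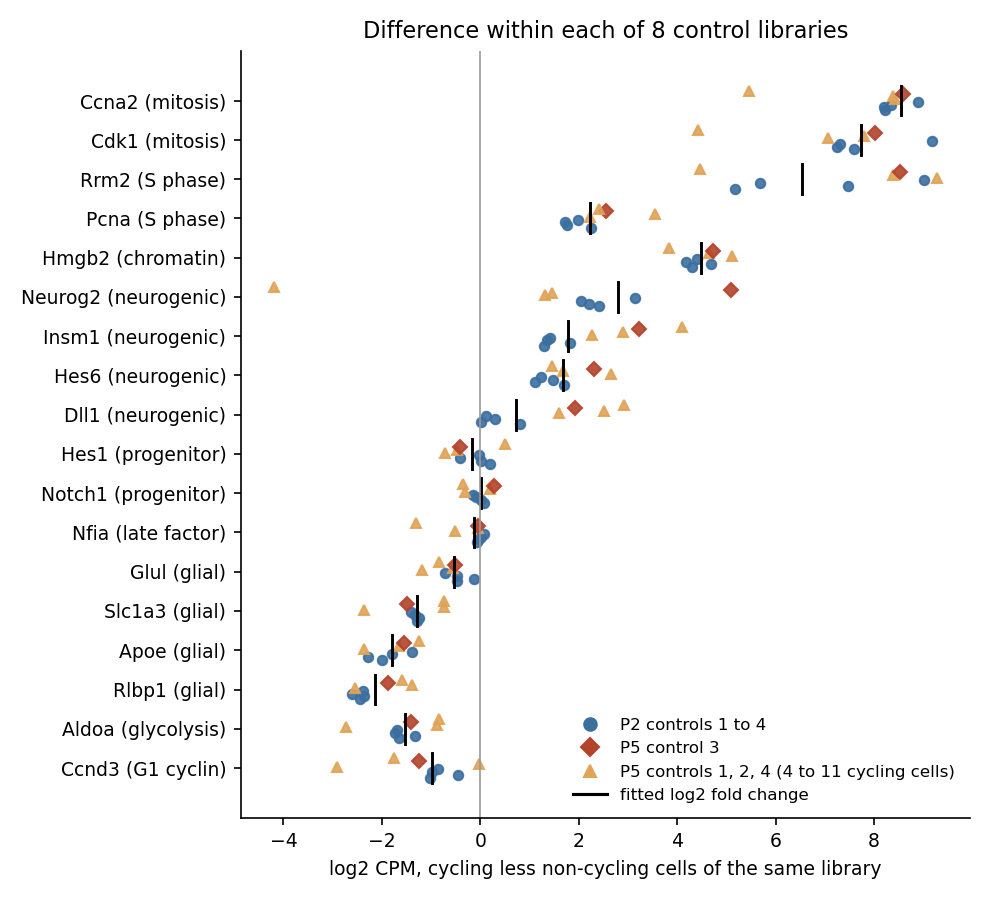
Log2 CPM of cycling less non-cycling cells within each library, for 18 cell cycle, neurogenic, progenitor, glial and metabolic genes; circles are P2 controls, diamonds P5 control 3, triangles P5 controls 1, 2 and 4 with 4 to 11 cycling cells, and the black bar is the fitted log2 fold change. Points left of 0 are lower in cycling cells: Ccna2, Hmgb2 and Hes6 lie to the right in every library, Rlbp1, Apoe and Aldoa to the left, and Hes1 and Notch1 on both sides.

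Among the 10 largest falls were genes outside these lists. Rgs6, a regulator of G protein signalling, was at 1.76, 10.4 and 191 CPM in cycling against 5.33, 107 and 782 in non-cycling profiles (-2.64 ± 0.15, edgeR adjusted p = 4.16e-11). Ndrg2, a gene of astrocytes and other glia, was at 24.5, 58.4 and 137 CPM against 123, 239 and 359 (-2.04 ± 0.14, adjusted p = 3.75e-10). Both were lower in 8 of 8 libraries.

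Glycolysis genes were level or lower in cycling cells. Of 19 tested, 12 were called lower and 0 higher (7 at neither), beside 26.6% and 23.0% of all genes tested. Their median log2 fold change was -0.71. Without P2 control 1, 11 of 19 were called lower (21.7% of all genes tested), and without P5 control 3, 12 of 19 (23.5% of all). Aldoa, aldolase A, was at 41.0, 66.0 and 115 CPM against 129, 189 and 408, with no overlap (-1.53 ± 0.11, edgeR adjusted p = 6.91e-10). Aldoc, the aldolase of glia (chr11:78322968-78327781), was at 0, 3.38 and 31.6 CPM against 8.11, 57.6 and 162 (-3.45 ± 0.21). Aldoc gave 50 UMIs in cycling and 3012 in non-cycling cells and passed the filter on low counts through non-cycling cells. It is therefore given without a p, though it is counted among the 12. Hk1, hexokinase 1, fell by 0.97 (SE 0.13, adjusted p = 6.36e-06) and Ldhb, lactate dehydrogenase B, by 0.88 (SE 0.09, adjusted p = 2.09e-07). Gapdh (-0.16), Pgk1 (-0.08) and Pkm (-0.18) were among the 7 not called.

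The electroporated reporter itself differed between the states. GFP was at 1633, 5421 and 19192 CPM in cycling and 13269, 17247 and 52221 in non-cycling profiles, lower in 8 of 8 libraries (-2.03 ± 0.31, edgeR adjusted p = 2.45e-05). Malat1, a nuclear long noncoding RNA, was at 12293, 21083 and 25516 CPM against 15389, 36439 and 45203 (-0.71 ± 0.12, adjusted p = 6.44e-05). Meis1 was at 97.0, 174 and 324 CPM against 168, 195 and 304, and neither it (-0.06 ± 0.10, adjusted p = 0.621) nor Meis2 (-0.06 ± 0.10, adjusted p = 0.66) was called. The sign of both changed under some alternatives.

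**Figure D4:**
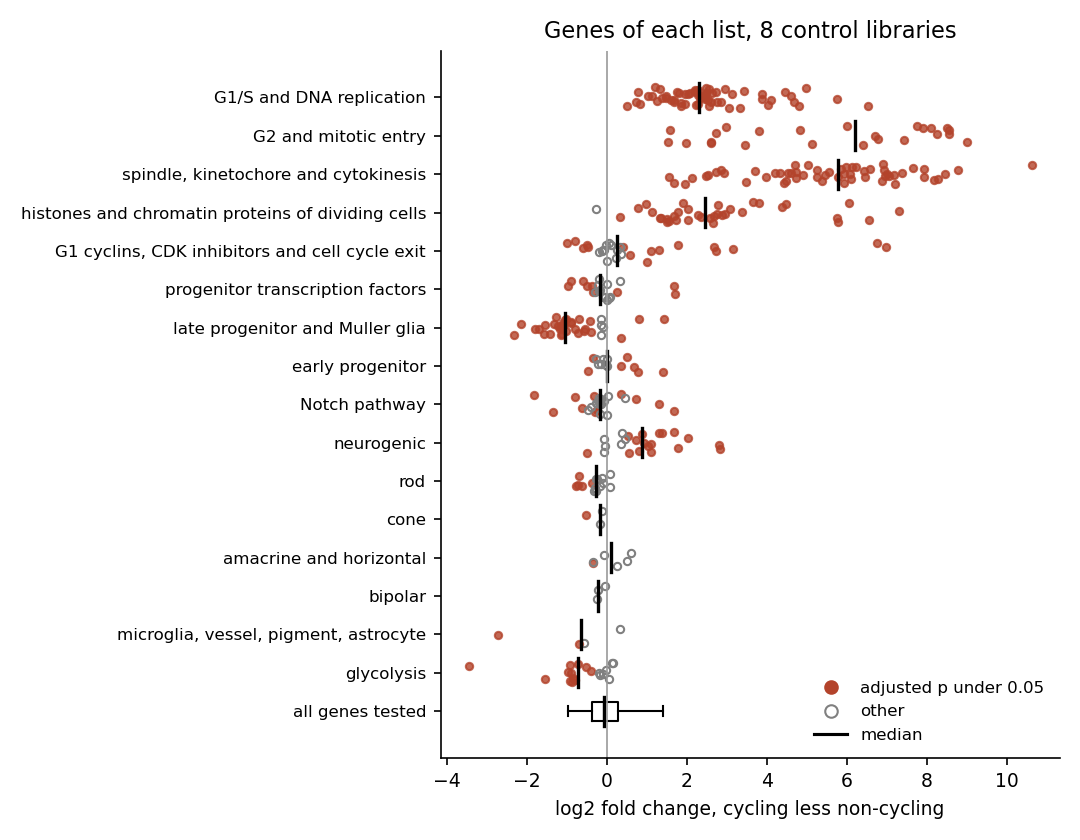
Log2 fold change of cycling less non-cycling cells for every tested gene of 16 lists (rows), fitted over 8 control libraries; filled points have an adjusted p under 0.05, open points do not, bars are list medians, and the box for all 11019 genes gives the quartiles with whiskers at the 5th and 95th percentiles. The mitotic lists sit near 6, the G1/S list near 2.31, the neurogenic list near 0.88, and the late progenitor and Müller glia list near -1.03.

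Small marker sets of other cell types were summed in both states. The summed rod markers had a median of 73.7 CPM (37.3 to 240.2) in cycling and 91.0 (54.0 to 193.5) in non-cycling profiles, against 3990 CPM in the authors' rods. Of 15 tested rod genes 5 were called lower (Pde6g, Sag, Rcvrn, Prph2 and Gngt1, -0.37 to -0.76), beside 26.6% of all genes tested. The 4 bipolar markers were at a median of 0.356 CPM (0 to 8.74) against 1.80 (0.708 to 6.66), with Vsx1 and Grm6 at 0 in cycling cells. The 4 cone markers were at 2.15 (0 to 13.0) against 4.25 (1.49 to 10.8) CPM, and the 4 amacrine markers at 11.3 (0 to 64.3) against 6.85 (4.33 to 43.0). Prkca, a kinase gene known from rod bipolar cells but outside that set, was at 154.5 and 159.2 CPM over the summed states. The part of such cells in the results was not tested. The progenitor markers had medians of 3441 CPM (2412 to 4342) and 3684 (2931 to 4341), both above the 2229 of the authors' neurogenic type and the 1996 of the Müller glia type. Of the 4 genes tested from microglia, vessels, pigment epithelium and astrocytes, 2 were called lower, beside 26.6% of all genes tested. Pdgfrb, a pericyte gene, was at -2.71, with 14 UMIs in cycling and 393 in non-cycling cells. It passed the filter on low counts through non-cycling cells, so its call supports nothing. Kdr, listed for vessels, was at -0.70, with 356.9 CPM over the cycling and 578.6 over the non-cycling cells. The vessel markers Cldn5 and Pecam1, not tested, were at 1.88 and 1.24 CPM against 1.94 and 1.21. Of the early progenitor genes, 5 of 14 were called higher (Lin28b, Igf2bp1, Nr2f1, Nr2f2 and Pou3f2, 0.35 to 1.4) and 2 lower (Plagl1 and Crabp2). Their median was 0.00, and 23.0% of all genes tested were called higher and 26.6% lower.

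The difference between the states was larger at P5 than at P2 for some genes and had the opposite direction for others. In the interaction of state and age, 336 of 12081 genes tested (2.78%) were called in edgeR's quasi-likelihood test, 135 with a higher difference at P5 (1.12%) and 201 with a lower one (1.66%). DESeq2 called 222 (149 higher and 73 lower) and gave no adjusted p for 6558 genes, and without TMM scaling the numbers were 238 and 171. The count was 169, 189 and 176 without P2 controls 1, 2 and 3, 222 without P5 control 2, and 24 of 7987 after thinning, 2 of them higher and 22 lower. Galnt18, a glycosyltransferase gene (chr7:111471661-111779977), was at 31.5, 11.7, 15.5 and 17.2 CPM in cycling and 8.08, 5.44, 5.12 and 5.95 in non-cycling cells of P2 controls 1 to 4. At P5 Galnt18 was at 26.5, 17.7, 14.1 and 31.6 CPM in cycling and 161, 122, 35.4 and 61.9 in non-cycling cells. The direction was thus opposite in every P5 library, with a difference of differences of -3.45 ± 0.29 (edgeR adjusted p = 3.03e-08). Synpr, synaptoporin of synaptic vesicles, turned the same way (0.63 at P2, -2.03 at P5, difference -2.47, adjusted p = 7.51e-06), though with cycling cells called from 1 UMI the difference was -1.01 and not called (edgeR adjusted p = 0.0890).

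Dock11, a guanine nucleotide exchange factor (chrX:35888832-36076562), was higher in cycling cells at both ages. Its differences within libraries were 0.61 to 1.63 at P2 and 4.15 to 4.33 at P5 (3.1 ± 0.38 between ages, edgeR adjusted p = 2.96e-05). The long noncoding RNA Miat was lower in cycling cells at P2 (-1.32) and higher at P5 (1.06), a difference of 2.01 (adjusted p = 2.96e-05). These genes kept the call without P5 control 3: Galnt18 at -4.19, Synpr at -2.84, Dock11 at 3.1 and Miat at 3.03. After thinning Galnt18 (-3.19), Synpr (-2.54) and Dock11 (2.82) kept it, while Miat was at 1.70 and not called (edgeR adjusted p = 0.0523). Thinning left 4, 2, 169 and 1 cycling cells in P5 controls 1 to 4, so the thinned P5 values rest mostly on P5 control 3. Galnt18, Synpr and Dock11 were also the 3 genes called without the library block.

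In edgeR's interaction test, 9 of 28 neurogenic genes were called with a higher difference at P5 and 3 with a lower one. Of 62 G1/S genes, 18 were called with a higher one. Over all genes tested, 1.12% were called higher and 1.66% lower. Btg2, which was called lower in cycling cells, was among the 3 (-1.25). For Insm1 the log2 fold changes were 1.38 at P2 and 3.11 at P5 (difference 1.70 ± 0.27, edgeR adjusted p = 0.000474), and for Mybl1 they were 2.50 and 3.87 (difference 1.43, adjusted p = 0.000415). Both calls were lost without P5 control 3, which held 213 of the 234 P5 cycling cells: Insm1 was at 1.45 (edgeR adjusted p = 0.126), Mybl1 at 0.94 (0.244), and 1 of 29 neurogenic genes was called higher and 1 lower (0.626% and 1.55% of all genes tested). The G1/S list then had 11 of 62 genes called higher, and 8 without P2 control 1 (0.456% of all genes higher and 0.921% lower), 10 without P2 control 3 (0.693% and 0.742%) and 8 without P5 control 2 (0.582% and 1.24%), with 0 called lower in each. After thinning, 0 of 23 neurogenic and 0 of 50 G1/S genes tested were called in either direction (0.0250% of all genes higher and 0.275% lower), with medians of 0.95 and 0.59. Of 27 named genes with an age difference, 13 were called without P5 control 3, and 5 (Galnt18, Synpr, Dock11, Tanc2 and GFP) after thinning. GFP fell further in cycling cells at P5 (-3.07) than at P2 (-1.18), a difference of -1.89 (edgeR adjusted p = 0.00137). The GFP difference was -3.84 after thinning and -0.51 with only the libraries of at least 50 cells in both states. That last setting left P5 control 3 as the only P5 library.

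The same split in the 12 MEIS libraries, which were not used to define it, gave 1073 cycling and 2530 non-cycling progenitors. Several held few cycling cells: 2 in P5 MEIS2 replicate 1, 4 in P5 MEIS1 replicate 1 and 8 in P2 MEIS2 replicate 2. P5 MEIS2 replicate 2 held 9, P5 combined replicate 2 held 14 and P5 MEIS1 replicate 2 held 18. These small numbers limit the comparison with controls. Of 10660 genes tested there, 5808 (54.5%) were called, 2391 higher (22.4%) and 3417 lower (32.1%), or 2979 and 2652 without TMM scaling. Of 10583 genes tested in both sets, 5250 were called in controls and 4624 of these were also called in the MEIS libraries, all in the same direction, which is 88.1% of the control calls and 80.1% of the 5774 MEIS calls. Across these genes the log2 fold changes had a Pearson r of 0.971 and a Spearman rho of 0.928, given as a description since genes are not independent and all cells share the splitting rule. The cell cycle genes gave close values, Ccna2 8.31 (8.56 in controls), Hmgb2 4.33 (4.49) and Pcna 2.34 (2.24).

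Outside the cell cycle, several genes and 3 lists had the same direction as in controls, while the median of the rod list changed sign. Hes6 rose by 1.75 ± 0.21 in the MEIS libraries and Neurog2 by 3.23. Rlbp1 had a log2 fold change of -1.99, Apoe -1.65, Aldoa -1.31, Id3 -0.81 and Ccnd3 -1.08. By list, 19 of 22 neurogenic genes were called higher and 0 lower, 30 of 35 late progenitor and Müller glia genes lower and 2 higher, and 13 of 19 glycolysis genes lower and 0 higher. Of the rod genes, 0 of 13 were called lower and 1 higher, with a median of 0.17, where controls had 5 of 15 lower, 0 higher and a median of -0.27. Notch pathway genes were called lower in 12 of 26 and higher in 5 (median -0.22), where controls had 7 and 4 (median -0.17). Amacrine and horizontal genes were called lower in 3 of 6 and higher in 3 (median 0.08), where controls had 1 and 0 (median 0.11). Over all genes tested, 32.1% were called lower and 22.4% higher in the MEIS libraries, and 26.6% and 23.0% in controls. These list differences were not tested. Notch1 (-0.07, edgeR adjusted p = 0.473) was not called there either, while Nfia was (-0.34, adjusted p = 0.000988). In the test of the difference between MEIS and control libraries, 0 of 12237 genes were called by edgeR's quasi-likelihood test (0.00%; 289 at an unadjusted p under 0.05) and 0 by DESeq2 (169 unadjusted). Without the filter on low counts edgeR called 5, Cxcl1 (-3.42), Adgrb3 (-0.71), Aldh1a1 (-1.36), Ttll12 (-1.49) and Neurod4 (1.22). Meis1, which is the construct's own gene in part of these libraries, was lower in their cycling cells (-0.77, adjusted p = 2.54e-05; -0.06 in controls), and its difference from controls of -0.66 was not called (adjusted p = 0.9998).

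**Figure D5:**
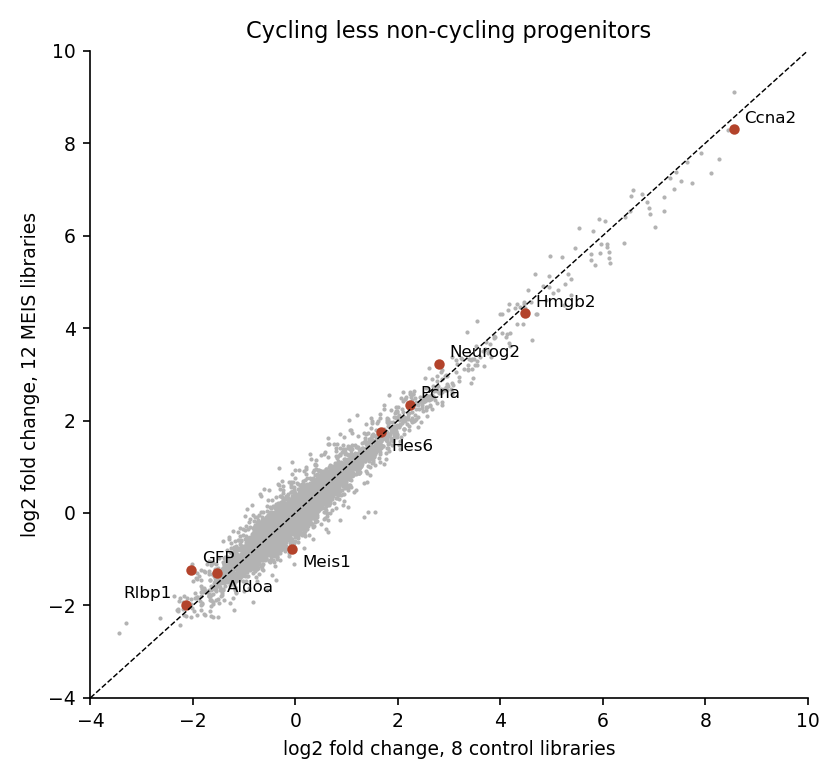
Log2 fold change of cycling less non-cycling progenitors in 12 MEIS libraries (y axis) against that in 8 control libraries (x axis) for 10583 genes (grey), with 9 named genes in red and the line of equal values dashed. Most genes lie along the line, from Rlbp1 near -2 to Ccna2 above 8, while Meis1 lies below it and GFP above it.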

How the data were processed

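Single-cell RNA-seq of GFP-positive cells from mouse retinal explants was made in 20 libraries, 8 of them controls. Per the series' design text and the submitters' processing notes, the authors used 10x 3′ v3.1 chemistry, Cell Ranger (version not given in the sources used here), mm10 with an added GFP locus, and Seurat 5; cell filters are not given in the sources used here. The deposited matrix holds raw UMI counts, and the deposited cell table holds UMI and gene counts per cell, the percent of mitochondrial UMIs, clusters, cell types and samples. The sums over the matrix matched the deposited UMI and gene counts in 79009 of 79009 cells, and the mitochondrial percent within 0.01. The number of columns of samples outside the series was 0.

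Counts were summed per library and state and tested with edgeR 4.0.16 (R 4.3.3): filterByExpr, TMM scaling, quasi-likelihood F test, library as block, Benjamini-Hochberg adjustment over all genes tested, threshold 0.05. The 4 selecting genes stayed in library sizes and out of tests. Standard errors are the fold change over the root of F. CPM of single genes per profile use TMM-scaled library sizes, and differences within a library use log2 CPM with a prior count of 0.5. Unscaled totals were used for Meis1 and Meis2 over all progenitors of a library and for summed marker sets. They were also used for genes given over the summed states, such as Arl6ip1, Ube2s, Fos, Prkca, Kdr, Cldn5 and Pecam1, where deeper libraries weigh more. The age and MEIS differences were interactions with state. Shares were compared with an exact permutation test (scipy 1.17.1). The library pairs the states by construction: after removal of state means, a library's own correlation was 0.294 to 0.875 over 4754 genes and higher than with any other library in 8 of 8.

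Named genes, 101 in all, came from called genes whose mean log2 CPM reached 5 and whose 8 library differences shared a sign: the 10 largest rises and falls and up to 4 each way per list. To these were added up to 5 each way called for age and, whatever their values, a fixed set of cell cycle, progenitor and glial genes. Values of some of these genes are not reported here, though list counts include them. The members, lists and tests were chosen with earlier results of these data known. On simulated data with known changes, the state test recovered 96.9% of 2-fold changes under a common trend of dispersion. Of its calls 5.4% were false under that trend and 12.1% under dispersions fitted per gene. The trend simulation changed 97 tested genes by 2-fold and 97 by 4-fold, far fewer than the 5464 called here. Its false shares therefore do not carry over to the main contrast. The age test recovered 49.0% of 2-fold changes, with 5.4% and 17.5% false.

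Alternatives were DESeq2 1.42.0, other scaling and filters, no library block, thinning to 2000 UMIs, other UMI limits, a mitochondrial limit of 10%, 4 other selecting genes, removal of doublets and each library left out. Scrublet (scanpy 1.11.5) marked 2678 control cells (5.39%), 202 of them cycling and 388 non-cycling; doublets were kept in the main values. It marked 0 cells in P2 control 2, 1 in P5 control 1 (taken as not having worked there) and 21 (0.531%) in P5 control 2, so doublets may remain in these libraries when marked cells are removed. Promoters are from RefSeq on GRCm38.p6, and gene positions from GENCODE on mm10.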

Additional observations from a re-analysis of the deposited data

Results flagged for a closer look

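In 196 groups of 4 libraries, 17 held a library set apart from the other three by Dixon's test, where chance alone gives about 1 in 20. Of these, 12 came from P5 controls 1, 2 and 4, which held 4 to 11 cycling cells. The share of progenitors called cycling was 21.7% in P5 control 3 and 2.86% to 3.11% in the other P5 libraries. The other values are log2 differences of cycling less non-cycling cells within a library.

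Among cell cycle genes P5 control 4 had Ccna2 at 5.46 (others 8.39 to 8.59), Ska1 at 6.62 (8.90 to 9.35), Hist1h2ae at 1.72 (5.97 to 6.14) and Clspn at 8.61 (5.89 to 6.26). The same library had Cyp2j6 at -0.052 (-2.09 to -2.03), Mfge8 at -0.65 (-1.91 to -1.70), Clu at -9.71 (-2.81 to -1.43) and Id1 at -0.39 (1.57 to 1.92). It also had Sox2 at -1.81 (-0.19 to 0.09) and Sfrp2 at -5.52 (0.52 to 1.72). P5 control 1 had Synpr at -4.58 (-1.95 to -1.69) and Dcdc2a at -6.70 (-0.89 to -0.56). Clu, Sfrp2 and Dcdc2a had 0 UMIs in the cycling cells of the library named, so the prior count sets these values and they are no bound. The same holds for Ska1 and Clspn, with 0 UMIs in non-cycling cells of P5 control 4 for both and of P5 controls 1 and 2 for Ska1. Among P2 libraries, P2 control 1 had Cdkn2d at 2.35 (3.18 to 3.28) and Mib1 at -0.34 (-0.14 to -0.10). P2 control 2 had Sox9 at -0.26 (-0.72 to -0.70) and Sfrp2 at 0.27 (-0.11 to -0.09).

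For 27 named genes the difference between the states itself differed between ages in edgeR's interaction test (P5 less P2, log2). Cell cycle genes with a larger difference at P5 were Rrm2 (2.94), Clspn (1.57), Mcm5 (1.5), Mcm2 (1.19) and Cdkn1c (0.87). Ccnd1 (0.66) was at -0.37 at P2 and 0.32 at P5. Neurogenic and progenitor genes were Insm1 (1.70), Dll1 (1.57), Mybl1 (1.43), Sox11 (0.90), Hes6 (0.77) and Sfrp2 (1.55), and Sfrp2 was at 0.14 without P5 control 3. Dock11 (3.1), Miat (2.01), Gm30382 (1.92), Rad51b (1.67) and Fabp5 (1.28) also had higher values at P5. Rlbp1 (0.67) and Ndrg2 (0.92) fell less in cycling cells at P5. Lower values at P5 were those of Galnt18 (-3.45), Synpr (-2.47), Dcdc2a (-2.45), Tanc2 (-1.503), Crip2 (-1.26), GFP (-1.89), Malat1 (-0.69) and Dkk3 (-0.59).

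Most of these 27 calls were lost under other settings. After thinning, the genes still called were Galnt18, Synpr, Tanc2, GFP and Dock11. The others were not. Among these Rlbp1 was at -0.025, Ccnd1 at 0.12 and Rrm2 at 1.18 (edgeR adjusted p = 0.9999, 0.974 and 0.594), while other values stayed close or grew: Sox11 1.14, Mybl1 1.4, Mcm2 1.75, Mcm5 1.77, Sfrp2 2.06, Gm30382 2.15, Ndrg2 0.99 and Cdkn1c 1.30. Without P5 control 3, the genes still called were those 5 and Rlbp1, Mcm5, Miat, Fabp5, Crip2, Dcdc2a, Dkk3 and Malat1. Those not called there included Rrm2 (2.88), Clspn (1.73), Mcm2 (1.71), Ccnd1 (0.54), Cdkn1c (1.08) and Ndrg2 (0.73). Nor were Insm1 (1.45), Dll1 (1.70), Mybl1 (0.94), Sox11 (0.57), Hes6 (0.63) and Sfrp2 (0.14), so that a lost call did not always go with a smaller value.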

How the results depend on the processing

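Of 72 named genes called between the states, 62 kept their direction and call in every alternative that tested them and none reversed. Thinning left fewer tested: 44 kept the call and 3 lost it when thinned before calling states, 48 and 2 after. Many of the 72 were named because they were called with the same sign in every library. Cell cycle genes among them, such as Esco2 and Plk1, also follow from the split. These counts were thus partly fixed by the choice of genes and are no independent test of the calls. Calls were lost in 31 of 1747 values, among them Lhx2, Mib1 and Dll1. Calls were gained under 1 or more alternatives by Ccnd1, Cdkn1b, Cdkn1c, Hes5, Rax, Sfrp2 and Nfib. Ska1 was at 9.51 without P2 control 1. The 5464 calls among 11019 genes tested ranged from 4464 to 5738 with each library left out. With cells thinned to 2000 UMIs fewer genes were tested. Of these, 2474 of 6474 were called when thinned before calling states, and 2619 of 6593 when thinned after. P5 libraries alone gave 2390 of 11009. The 336 age differences among 12081 genes tested were 222 in DESeq2 and 108 with cycling cells called from 1 UMI. They were 24 of 7987 after thinning, and 169 to 358 with each library left out. The 5808 calls among 10660 genes tested in MEIS libraries were 1465 of 3528 after thinning. The 0 differences between MEIS and control libraries were 5 without the filter on low counts. Thinning before calling states changed the states as well as the depth. It left 4, 2, 169 and 1 cycling cells in P5 controls 1 to 4. The cause of these shifts was not tested.

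Without the pairing of states by library (no block), 3094 state differences and 3 age differences were called. Signs that changed without it were those of Ccnd1 (0.029), Notch1 (-0.014), Sox2 (-0.087), Rax (-0.071) and Meis2 (0.11), none of them called in either fit.

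Signs also changed for genes that were not called. Ccnd1 was at 0.014 without TMM and 0.32 at P5 alone, Cdkn1b at -0.12 at P5 alone and Sfrp2 at -0.041 at P2 alone. Notch1 was at -0.0205 in DESeq2, -0.050 without the filter, -0.0215 with DESeq2 size factors, -0.12 and -0.17 thinned before and after, -0.018 without doublets and -0.030 at P2 alone. Sox2 was at -0.0335 in DESeq2, -0.014 without the filter, -0.034 from 1 UMI, -0.060 with non-cycling cells free of S phase UMIs and -0.20 at P5 alone. Rax was at -0.15 in DESeq2, -0.055 without the filter, -0.017 with DESeq2 size factors, -0.041 with cells free of S phase UMIs, -0.0063 with other selecting genes and -0.46 at P5 alone. Meis1 was at 0.013 without TMM, 0.037 and 0.0011 thinned before and after, 0.055 from 1 UMI and 0.052 at P2 alone. Meis2 was at 0.055 from 1 UMI, 0.12 thinned after, 0.23 with cells free of S phase UMIs and 0.061 without doublets. With each library left out, values crossed 0 for Ccnd1 (-0.17 to 0.038), Notch1 (-0.045 to 0.034), Rax (-0.067 to 0.0945), Sox2 (-0.049 to 0.10) and Sfrp2 (-0.0165 to 0.52). DESeq2 gave no adjusted p for the age differences of Dock11 and Dcdc2a. The number of cycling cells, 4 to 11 in 3 libraries, limits the P5 values.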
